A study of Triticum aestivum with 4 samples.

Results

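Peroxidases and the other genes with antioxidant activity were described here in roots and leaves of wheat (Triticum aestivum) cultivar MGS1 Aliança under drought. Members were the assembled transcripts (isotigs) that the deposited Gene Ontology lists place under antioxidant activity and whose best match is an Arabidopsis thaliana protein at a BLAST E-value of 0.001 or less. CAT2, APX1, DHAR2, GR1, PRX52, RCI3 and the glutathione transferases were left out by the rule. This gave 59 genes of 10711 matched in either tissue, with 46 of 9199 genes in roots and 37 of 7012 in leaves. Of these, 24 were found in both tissues, 22 (37.3%) in roots alone and 13 (22.0%) in leaves alone, beside 34.5% and 14.1% of all matched genes. The rule used no read counts, only the annotation.

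All plants were MGS1 Aliança, a cultivar grown rainfed in the Brazilian Cerrado, raised 3 to a pot in a glasshouse and harvested at tillering, 5 weeks old. Control plants were held at 100% of field capacity throughout, whereas drought-stressed plants had 2 weeks at 75% of field capacity and 3 weeks without water. Roots and leaves of the plants of 1 pot were pooled apart, so the study consists of 4 libraries (root control, root drought, leaf control and leaf drought) with no replicate. A difference here is therefore between 2 libraries, p-values and intervals cover counting error only, and the pot cannot be told apart from the treatment.

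Plants keep reactive oxygen in check with enzymes in several compartments. Superoxide dismutases turn superoxide into hydrogen peroxide, and catalase, ascorbate peroxidases, glutathione peroxidases and peroxiredoxins break the peroxide down inside the cell, drawing on ascorbate, glutathione and thioredoxin. Class III peroxidases are different: they are heme enzymes secreted to the cell wall and vacuole, form large families in grasses, and use hydrogen peroxide to couple phenolics into lignin and suberin or to cross-link wall proteins. They can also produce reactive oxygen, and roots are known for expressing many of them.

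The root libraries held 108540 (control) and 95915 (drought) reads in genes, and the leaf libraries 83354 and 62635. A gene is the sum over isogroups (sets of isotigs that share contigs, each near to a transcript locus) with the same Arabidopsis match, each isogroup counted by its isotig with most reads. Members held 97 isogroups in roots and 54 in leaves. The E-values of member isotigs reached 0.0005 in roots, for an isotig matching AT2G18980 with 4 control and 1 drought reads, and 2e-08 in leaves, for a match to GPX6. No listed Arabidopsis match lay above the limit. Up-regulated and down-regulated mean an unadjusted p under 0.001 in MARS (the test of the study, from DEGseq). Folds compare drought with control after division by the totals and have their 95% exact binomial interval in parentheses, and a p printed beside one is from Fisher's exact test (two-sided). A library without reads was set to 3 reads for a bound on the fold, written as "at least".

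The class III peroxidases were the members with most reads in roots, and they were lower in the drought library. Their 59 root isogroups held 877 reads in the control and 230 under drought. This was 0.850% of the control isogroup reads (exact Clopper-Pearson interval 0.795 to 0.908) and 0.251% of the drought reads (0.220 to 0.286), a 3.38-fold lower share (2.92 to 3.93). In leaves the class held 9 isogroups, with 39 control and 33 drought reads. Among the 25 class III genes measured in roots, 12 were down-regulated and 0 up-regulated, beside 5.16% of all root genes down-regulated and 3.63% up-regulated. These 12 were all the down-regulated members of roots, and 0 of the 46 members were up-regulated, with Fisher's exact test and the edgeR exact test also at 0. At an unadjusted p under 0.05, 4 root members were higher and 16 lower, against 11.69% and 13.01% of all root genes.

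**Figure D1:**
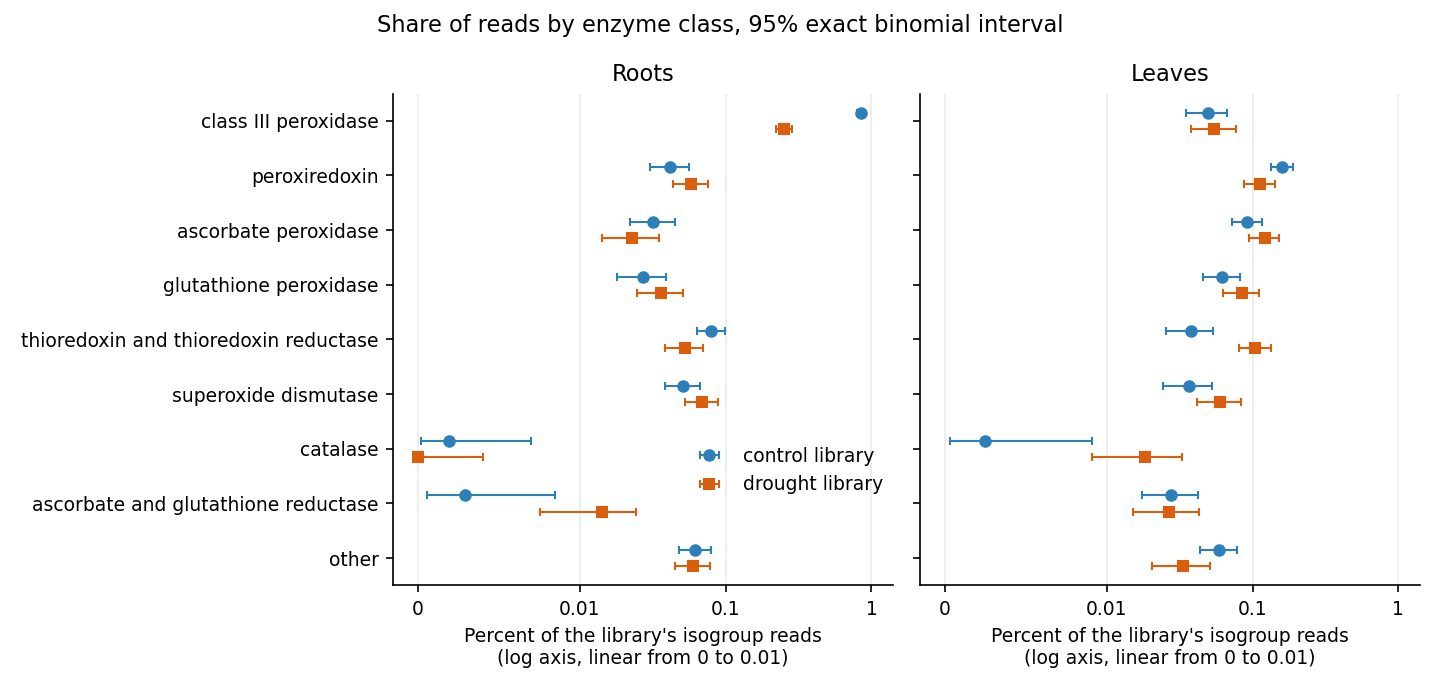
Share of each library's isogroup reads (percent, log axis that is linear below 0.01) held by each enzyme class of the members, with points for the control and drought library and bars for the 95% exact binomial interval. In roots the class III peroxidases held 0.850% in the control and 0.251% under drought, and their intervals do not overlap, whereas most other classes overlap between the libraries.

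The median log2 ratio of the 14 class III genes with at least 10 reads in roots was -3.31, or -2.56 with libraries at 0 set to the bound of 3 reads, against 0.02 for all 4785 root genes with that many reads. Over all 27 members with at least 10 reads it was -1.20. With size factors the median of all root genes moved to -0.16 and that of the members to -1.38, and the calls over all root genes went from 334 up-regulated and 475 down-regulated to 257 and 559. All 14 of these genes were below a ratio of 1. The 13 other members with at least 10 reads had a median of 0.06, and 7 of them were above 1. All 25 class III matches were annotated to the extracellular region, compared with 1 of the other 21 root members, CSD1. The class III isogroups had a median length of 1198 bases, and their matches covered a median of 77.6% of the Arabidopsis protein at a median identity of 51%. At such identity a match names the family rather than a single wheat gene, and the loci below serve as labels of groups of wheat transcripts.

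Among the down-regulated class III peroxidases, those with the most reads were AT1G71695, AT4G33420 and AT5G19890. AT1G71695 had 286 control and 104 drought reads over 14 isogroups, 2.43-fold lower (1.94 to 3.07; Fisher's exact p = 2.70e-16). AT4G33420 had 198 and 44 reads over 7 isogroups, 3.98-fold lower (2.86 to 5.65; Fisher's exact p = 1.30e-20). AT5G19890 had 148 and 57 reads over 6 isogroups, 2.29-fold lower (1.68 to 3.17; Fisher's exact p = 3.23e-08). In reads per kilobase of isotig and 1000000 gene reads, AT1G71695 had the highest level of the members in the control roots, at 2098 against 863 under drought, followed by AT4G33420 at 1319 and 287 and AT5G19890 at 1072 and 461. In the drought roots the order changed, and CSD1, a cytosolic superoxide dismutase, came second at 765, against 404 in the control. Part of the 765 comes from 3 drought reads on an isotig of 185 bases. By reads the ratio of CSD1 was 1.56, and it was not called.

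Class III genes with fewer reads often had none in the drought library. AT4G11290 had 43 control reads and no drought read, at least 12.7-fold lower. The same pattern held for AT1G14550, from 16 to 0 (at least 4.71-fold), and AT2G41480, from 14 to 0 (at least 4.12-fold). AT2G38380 went from 26 to 0 (at least 7.66-fold) and AT5G06730 from 25 to 0 (at least 7.36-fold), but 24 reads of the first and all 25 of the second lie in an isogroup that both loci share, so they are near to a single observation. AT4G11290 likewise shares an isogroup of 11 control reads with RCI3, which is no member.

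Reads remained in the drought library for the others. AT2G39040 had 33 and 7 reads, 4.17-fold lower (1.81 to 11.2). AT2G24800 had 20 and 1, 17.7-fold lower (2.83 to 733), and AT5G66390 had 16 and 1, 14.1-fold lower (2.20 to 593). AT4G37530 had 17 and 2, 7.51-fold lower (1.78 to 67.0), and with a Fisher's exact p of 0.00104 its call holds in MARS but not at this threshold in Fisher's test. The width of these intervals shows how little 1 or 2 drought reads fix the size of the fold.

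Of the 13 class III genes not called in roots, 11 were also below a ratio of 1. AT2G18980, with 12 and 4 reads, had the most reads of these. AT2G38390 and AT5G51890 share an isogroup with 9 reads in the control and none under drought. AT5G14130 had 4 reads in each library, and AT1G68850 had 1 and 2. PER4, the single class III member with a symbol, had 2 and 0 reads. In all, 13 of the 25 genes had no read in the drought library and 0 had none in the control. Of all 9199 root genes, 1076 had no drought read and 672 no control read. Among the 13, AT2G38380 and AT5G06730 share an isogroup, as do AT2G38390 and AT5G51890. Under 10 reads, as in 11 of the 25 genes, a count of 0 says little. Without the 3 genes with most reads, the class III isogroups held 245 control and 25 drought reads, 8.69-fold lower (5.75 to 13.7), against 2.73-fold (2.33 to 3.22) for those 3 genes.

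**Figure D2:**
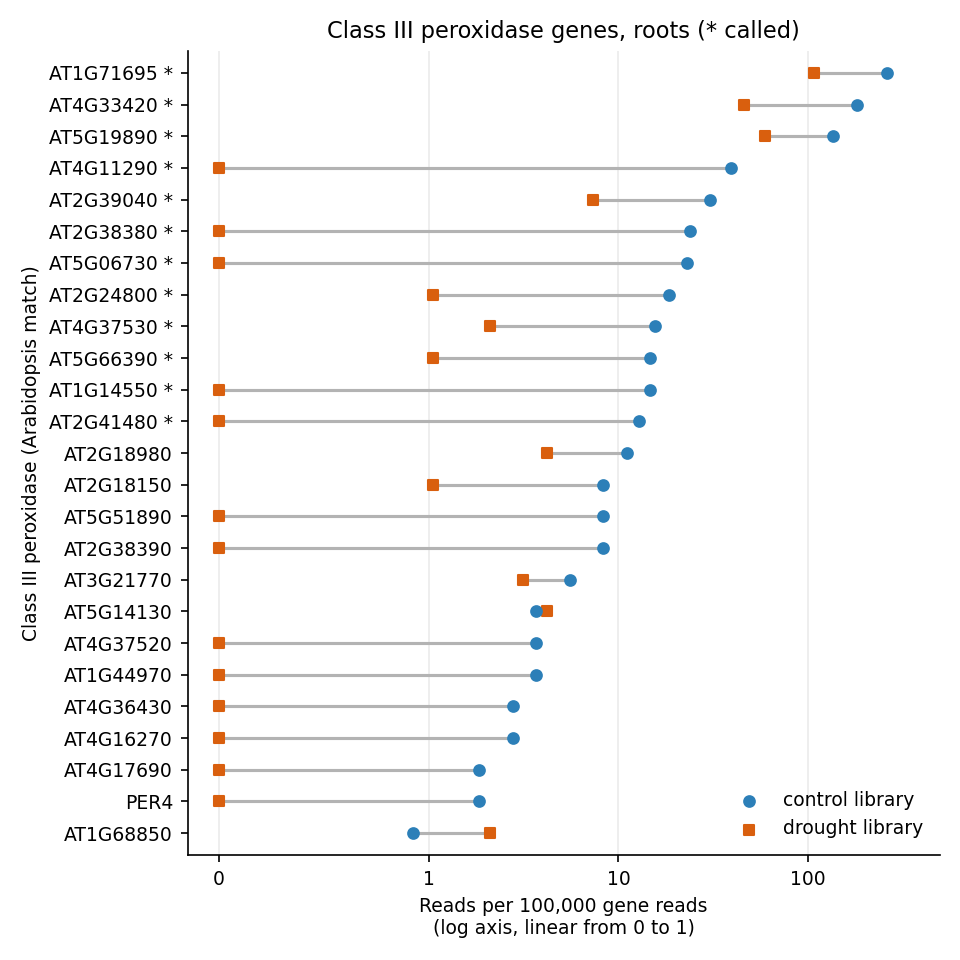
Reads per 100000 gene reads (log axis, linear from 0 to 1) of each of the 25 class III peroxidase genes in the control root library (circles) and the drought root library (squares), ordered by control reads, with an asterisk at the 12 called genes. The drought square lies left of the control circle for 23 genes, and 13 squares sit at 0.

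Wheat transcripts with the same Arabidopsis match did not all follow their gene. Counted apart, 17 of the 59 class III isogroups were down-regulated, beside 3.16% of all root isogroups, and 1 was up-regulated, beside 2.65%. Of the 30 with at least 10 reads, 7 (23.3%) had no read in the drought library, compared with 4.82% of all root isogroups with that many reads. Among the 14 isogroups of AT1G71695, isogroup07809 had 71 and 4 reads, 15.7-fold lower (5.88 to 59.3), and isogroup00731 had 32 and 1. Isogroup02466 had 16 and 52 reads, 3.67-fold higher (2.06 to 6.88; Fisher's exact p = 1.08e-06). It covered residues 48 to 341 of the 358 of AT1G71695 at 40% identity, against 47 to 354 at 46% for isogroup07809.

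The isogroups of AT4G33420 and AT5G19890 also differed in their ratios, but none of them was up-regulated. For AT4G33420, 4 of its 7 isogroups were down-regulated, isogroup02405 from 64 to 5 reads for example (11.3-fold, 4.62 to 36.1). Isogroup04785 had 8 and 15 reads, 2.11-fold higher with an interval that includes 1 (0.842 to 5.76). For AT5G19890, isogroup07240 went from 42 to 4 reads (9.31-fold lower, 3.38 to 35.7), whereas isogroup00290 had 21 and 23 (1.24-fold higher, 0.654 to 2.35). The leading transcripts of the class thus differed between the libraries. The 5 isogroups with most reads held 32.4% of the class III reads in the control and 53.9% under drought, and 1 isogroup was in both sets of 5. Isogroup02466 alone made up 1.82% of the class in the control, where it ranked as number 18, and 22.6% under drought, where it ranked as number 1. Without it, the class was 4.29-fold lower (3.65 to 5.07).

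**Figure D3:**
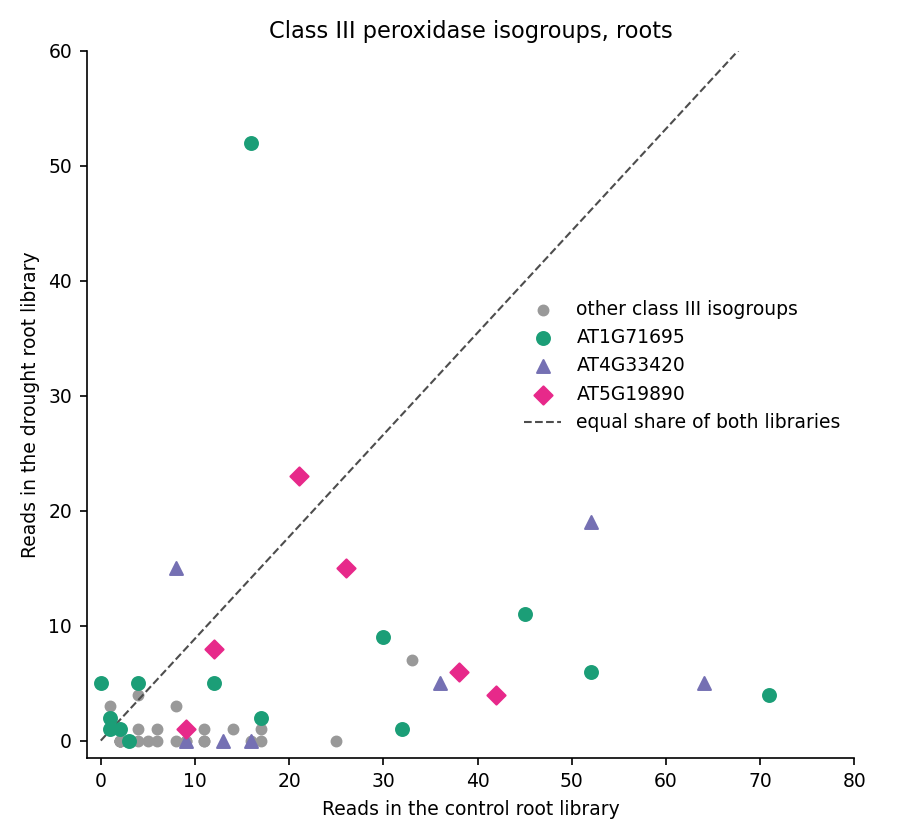
Reads of each of the 59 class III isogroups in the control root library (x axis) and the drought root library (y axis), with the isogroups of the 3 genes with most reads set off by colour and shape. The dashed line marks an equal share of both libraries. Most points lie below it, and isogroup02466 of AT1G71695, at 16 control and 52 drought reads, lies far above it.

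Marker genes of root and leaf tissue were measured beside this result. The root markers with reads in roots, the tonoplast aquaporin TIP2;3 and the nitrate transporter NRT2.1, went from 98 to 0 and from 14 to 0 reads, a summed level of 112 and 0, and were both down-regulated. The other 2 root markers (TIP2;2 and CASP1) and the 5 leaf markers had no matched isotig in roots. The root drought library thus holds no read of either measured root marker, and the part of this in the class III result was not tested. In pooled tissue, fewer cells of a type and less RNA per cell cannot be told apart.

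None of the 21 other members measured in roots was called in either direction. Among the superoxide dismutases, CSD1 had 40 and 55 reads, a ratio of 1.56 (1.02 to 2.40; Fisher's exact p = 0.0392), and the chloroplast form CSD2 had 13 and 8. APX3, a peroxisomal ascorbate peroxidase, had 32 and 21 reads (ratio 0.743, 0.407 to 1.33). AT1G65820, a microsomal glutathione transferase with peroxidase activity, had 33 and 22, and TPX1, a thioredoxin-dependent cytosolic peroxiredoxin, had 24 and 18. These ratios lie within counting error of 1 apart from that of CSD1, whose p misses the threshold.

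AT1G60420, whose match is a thioredoxin-fold protein-disulfide reductase, had the most reads of the root members outside class III. Its total of 77 control and 43 drought reads, a ratio of 0.632 (0.425 to 0.929; Fisher's exact p = 0.0171), was not called, though it was called down-regulated when all isotigs were summed or 1 isotig was kept per gene. Its isogroups went opposite ways. Isogroup00135 had 75 and 22 reads and was down-regulated, 3.02-fold (1.86 to 5.11), with a match over residues 25 to 577 of 578 at 55% identity. This isogroup also holds an isotig matching the laccase LAC7. Isogroup01022 had no control read and 21 drought reads and was up-regulated, at least 7.89-fold, with a match over residues 194 to 543 at 38% identity. With isogroup02466 it made up the 2 member isogroups up-regulated in roots.

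Some members with few reads were chosen for mention after their values were seen. GR, the plastid glutathione reductase, had 3 and 13 reads (ratio 4.90, 1.35 to 26.8; Fisher's exact p = 0.00975), and PRXIIF, a mitochondrial peroxiredoxin, had 1 and 10 (ratio 11.3, 1.61 to 491; p = 0.00420). ANNAT1, an annexin listed for a peroxidase activity, had 13 and 23 (ratio 2.00, 0.973 to 4.30). GPX6 and GPX4, glutathione peroxidases, had 15 and 21 and 13 and 12 reads. None of these passed the threshold. Of the 21 root members outside class III, 10 had a ratio above 1 and 11 below it, and 8 had under 10 reads.

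In leaves, the intracellular members had more reads than the class III peroxidases, and few differed between the libraries. Of the 37 leaf members, 3 were up-regulated and 2 down-regulated, beside 5.06% and 2.58% of all leaf genes, so these counts are too few to set the members apart from the background. The median log2 ratio of the 23 members with at least 10 reads was 0.41, against 0.49 for all 2971 leaf genes with that many reads. The leaf ratios are thus centred above 0, and the values below are to be read against 0.49. With TMM scaling the median of all leaf genes moved to -0.07 and that of the members to -0.16, and the split of all leaf genes changed from 355 up-regulated and 181 down-regulated to 173 and 317.

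The markers of green leaf tissue were lower under drought, against the upward median of all leaf genes. RBCS1A, the small subunit of Rubisco, had 6764 control and 901 drought reads, and RCA, Rubisco activase, had 1822 and 362. Over the 5 markers, which include LHCB4.1, LHCA1 and PSAF of the photosystems, reads went from 9399 to 1390, and 4 of the 5 were down-regulated. No root marker had a matched isotig in leaves. The part of these markers in the leaf ratios of the members was not tested.

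The up-regulated leaf members were AT1G60420, AT4G31240 and APX3. AT1G60420 had 5 control and 44 drought reads, 11.7-fold higher (4.66 to 37.8; Fisher's exact p = 9.63e-12). AT4G31240, annotated like AT1G60420 as a thioredoxin-fold protein-disulfide reductase, had 0 and 29 reads, at least 12.9-fold higher. These 29 drought reads are the same in both genes, since isogroup01011 holds isotigs that match each of them. Its isotig matching AT1G60420 covers residues 194 to 343 at 38% identity, starting at the same residue as that of the up-regulated root isogroup01022. A further isogroup of AT1G60420 had 3 and 11 reads (Fisher's exact p = 0.0121) and was not called.

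APX3 had 38 and 57 reads in leaves, 2.00-fold higher (1.30 to 3.09; Fisher's exact p = 0.000857). Its call was lost under 8 of 12 alternatives, among them the library totals of the study, TMM, median-of-ratios size factors, Benjamini-Hochberg adjustment and the 2-fold minimum. Its 2 larger isogroups had 18 and 25 and 20 and 30 reads, so neither stood apart from the other.

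The down-regulated leaf members were a chloroplast peroxiredoxin and a class III peroxidase. 2-Cys Prx B, which reduces peroxide in the chloroplast with electrons from thioredoxin and NTRC, had 66 and 21 reads, 2.36-fold lower (1.43 to 4.06; Fisher's exact p = 0.000316). It had the highest level per kilobase of the leaf members in the control, 765 reads per 1000000 gene reads, and 324 under drought. AT4G37530 had 18 and 2 reads, 6.76-fold lower (1.62 to 60.1; Fisher's exact p = 0.00248), so that Fisher's test did not call it. It was the only class III member called in leaves, and it was down-regulated in roots too. Listed isotigs whose best match is from another species are outside this count. Among them, leaf isotig07030, matched to a Peroxidase 15, had 3 and 23 reads and was up-regulated.

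Of the leaf members not called, those with the most reads were GPX6, PRXQ, NTRC, APX4 and CSD2. GPX6 had 31 and 32 reads (ratio 1.37, 0.812 to 2.33). PRXQ, a chloroplast peroxiredoxin, had 33 and 20 (0.807, 0.439 to 1.45) in an isogroup that also holds an isotig matching AT4G16410, and NTRC, the plastid thioredoxin reductase that feeds 2-Cys Prx B, had 25 and 17 (0.905, 0.459 to 1.74). CSD2 had 18 and 21 (1.55, 0.788 to 3.09). APX4, a thylakoid lumen protein of the ascorbate peroxidase family, had 31 and 8 reads, 2.91-fold lower (1.31 to 7.33; Fisher's exact p = 0.00528). It was called down-regulated with each of the 3 other scalings.

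Peroxiredoxins as a class held 127 control and 68 drought reads in leaves, 1.42-fold lower (1.05 to 1.93), and 2.08-fold lower (1.54 to 2.84) with TMM scaling. Of these reads, 66 and 21 were of 2-Cys Prx B alone. The proteins grouped as thioredoxins and thioredoxin reductases held 30 and 63 reads, 2.77-fold higher (1.77 to 4.43), and 1.88-fold (1.20 to 3.02) with TMM. Here isogroup01011 alone held 0 and 29. Both ratios thus lean on a single isogroup, and the rest of each class was not tested apart. For class III peroxidases the leaf ratio was 1.12 (0.680 to 1.82) and turned to 0.759 (0.463 to 1.24) with TMM, and the ascorbate peroxidases, at 73 reads in each library, turned from 1.32 (0.940 to 1.85) to 0.897 (0.640 to 1.26). No direction was established for these classes. The 8 leaf class III genes not called had between 2 and 20 reads each over both libraries, and 6 of the 9 class III genes of leaves were above a ratio of 1.

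Isogroups of the same leaf gene diverged as in roots. AT3G52960, a redoxin-domain protein of the chloroplast, had 14 and 17 reads, but isogroup05731 had 0 and 13 (up-regulated, at least 5.72-fold) and isogroup05367 had 14 and 2 (5.31-fold lower, 1.22 to 48.1; Fisher's exact p = 0.0199; not called). Counted by isogroup, 2 of the 54 leaf member isogroups were up-regulated and 2 down-regulated, beside 3.43% and 2.47% of all leaf isogroups. Chosen after their values were seen, the catalase CAT1 had 2 and 11 reads (ratio 7.32, 1.60 to 68.0; Fisher's exact p = 0.00330), TPX1 had 10 and 1 (p = 0.0297), and AT5G60010, annotated as a superoxide-generating NADPH oxidase with peroxidase activity, had 13 and 2 (p = 0.0331). None of these was called.

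The drought effect was compared between roots and leaves for the 12 members with at least 10 reads in each tissue, by a z of the difference of log2 ratios adjusted with Benjamini-Hochberg over 1991 genes. It differed for 3 of them, beside 16.5% of all genes compared. For AT1G60420 the root ratio minus the leaf ratio was -4.08 on the log2 scale (-5.47 to -2.70; adjusted p = 7.65e-07), with 77 and 43 reads in roots against 5 and 44 in leaves. These sums mix isogroups: in roots isogroup00135 had 75 and 22 reads, whereas isogroup01022 had 0 and 21. Of the leaf drought reads, 29 lie in isogroup01011, whose match starts at the same residue as that of isogroup01022. Each of these isogroups was higher under drought in its own tissue. Whether they are the same transcript was not tested, since the tissues were assembled apart. For AT5G06730 the difference was -6.75 (-10.99 to -2.52; adjusted p = 0.0165), from 25 and 0 reads in roots and 7 and 13 in leaves. This value and its p rest on the 0.5 added to the drought count of 0, and with that count set to 3 reads, as for the folds, the difference was at most -4.19. For APX3 it was -1.41 (-2.39 to -0.43; adjusted p = 0.0352), but with TMM scaling the adjusted p was 0.250.

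For the 9 other members the interval of the difference included 0. AT4G37530, the class III gene called in both tissues, had 17 and 2 reads in roots and 18 and 2 in leaves, a difference of -0.15 (-2.85 to 2.55). That of CSD1 was -0.21 (-1.46 to 1.04) and that of GPX6 was 0.19 (-0.98 to 1.37). The intervals are wide, and they do not show that the effects were alike. Of the 27 class III genes among the members, 18 (66.7%) were measured in roots alone, 2 (7.41%) in leaves alone and 7 in both, beside 34.5% and 14.1% of all matched genes in 1 tissue alone, so that most could not be compared.

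**Figure D4:**
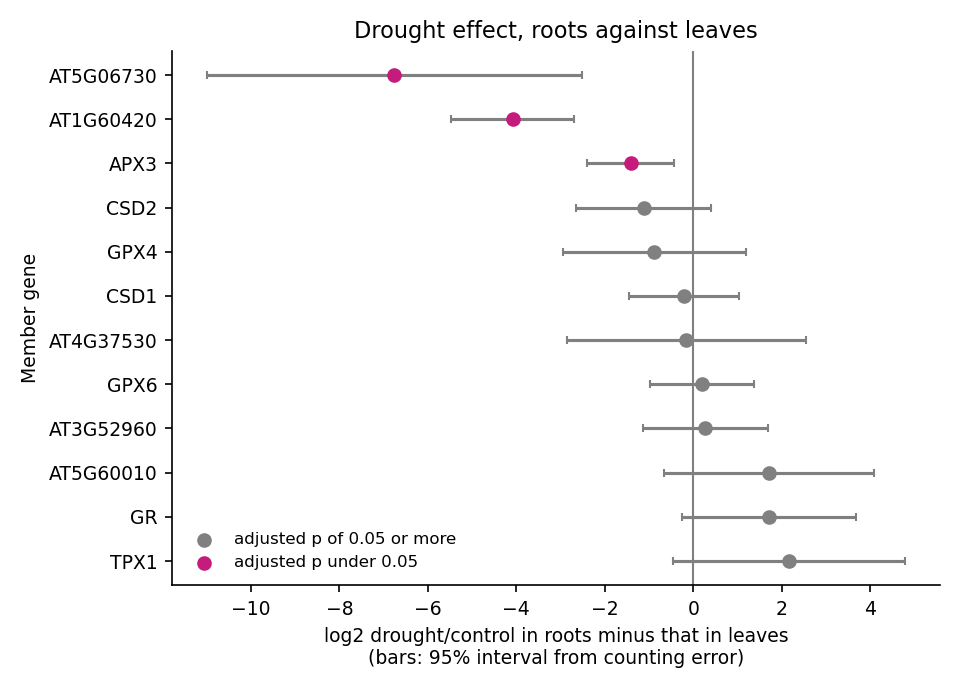
Difference between the log2 ratio of drought to control in roots and that in leaves for the 12 member genes with at least 10 reads in each tissue, with the 95% interval from counting error. AT5G06730 (placed by the 0.5 added to a root drought count of 0), AT1G60420 and APX3 lie left of 0 with an adjusted p under 0.05, and the intervals of the other 9 cross 0.

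Enzymes that make reactive oxygen or supply the members were described from lists of genes outside the rule. Their counts stand beside 3.63% up-regulated and 5.16% down-regulated of all root genes and 5.06% and 2.58% of all leaf genes, and each list is too short to be set apart from these shares. NADPH oxidases, which release superoxide into the cell wall, had 2 up-regulated and 0 down-regulated of 5 measured in roots outside the members. The NADPH oxidases AT1G19230 (5 and 1 reads in roots) and AT5G60010 (10 and 7) are members and were called in neither tissue. RBOHB had 18 and 55 reads, 3.46-fold higher (2.00 to 6.26), and RBOHD had 44 and 79, 2.03-fold higher (1.39 to 3.01), though the call of RBOHB was lost under 2 of 12 alternatives and that of RBOHD under 5 of 12. RBOHC, the oxidase of Arabidopsis root hairs, had 36 and 14 (Fisher's exact p = 0.00706) and was not called. In leaves 0 of 2 was called. The alternative oxidase AOX1A, which bypasses the mitochondrial cytochrome chain, was up-regulated in roots from 13 to 38 reads (3.31-fold, 1.72 to 6.77), as 1 of the 2 measured there, with the call lost under 4 of 12 alternatives.

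The ferritin FER4, an iron store, was up-regulated in both tissues, from 7 to 33 reads in roots (5.33-fold, 2.32 to 14.3) and from 2 to 23 in leaves (15.3-fold, 3.78 to 134). It was 1 of 2 ferritins measured in roots and, with FER3 (1 and 19 reads), 1 of 2 up-regulated of 3 in leaves. Among laccases, copper oxidases that act on lignin precursors beside the class III peroxidases, LAC7 was down-regulated in roots as 1 of 7. It went from 33 to 3 reads (9.72-fold, 3.05 to 49.5). Below a ratio of 1 were 6 of the 7, beside 4481 of all 9199 root genes, but 5 of the 7 had under 10 reads. Of the LAC7 reads, 17 in the control and 0 under drought lie in isogroup00135, which it shares with AT1G60420. LAC17 was up-regulated in leaves, from 0 to 13 reads (at least 5.77-fold), as 1 of 2, with the call lost under 3 of 12 alternatives, whereas those of FER4 (in each tissue), FER3 and LAC7 were each lost under 1 of 12.

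In the supply of ascorbate, MDAR6, a monodehydroascorbate reductase, was down-regulated in roots from 51 to 12 reads (3.76-fold, 1.98 to 7.74, call lost under 2 of 12 alternatives), as 1 of 4 recycling enzymes measured. MDAR1, with 30 and 46 reads, had the opposite sign and was not called (Fisher's exact p = 0.0210). GME, an epimerase of ascorbate synthesis, was down-regulated in roots from 36 to 9 reads (3.53-fold, 1.67 to 8.34, call lost under 4 of 12 alternatives) as 1 of 10. VTC5, which commits GDP-galactose to ascorbate, was down-regulated in leaves from 101 to 30 reads (2.53-fold, 1.67 to 3.94, call lost under 2 of 12 alternatives) as 1 of 7. No gene of the ascorbate lists was up-regulated in either tissue, and 0 of 3 recycling enzymes was called in leaves. CCS, the copper chaperone of superoxide dismutase, was the only gene of its list outside the members and was not called, with 4 and 5 reads in roots and 10 and 1 in leaves. No thioredoxin reductase or sulfiredoxin outside the members was measured.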

How the data were processed

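Total RNA of pooled roots or leaves was sequenced by the authors on a GS FLX Titanium. For each tissue, 1 joint Roche assembly served both conditions, and the authors deposited read counts per isotig and library, in which reads of a contig shared by isotigs recur in each. The deposited match tables give, per isotig, the E-value and the percent identity of its best BLAST hit, as the authors obtained them. Deposited fold changes, z-scores and p-values of the authors' own comparisons were not used.

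Gene counts were built as the text states, with Python 3.11.15, numpy 2.4.6, scipy 1.17.1 and pandas 2.3.3. MARS was written again from its published form, with a count of 0 set to 1 and the sums of the counts as totals, and was tested on simulated data. Shares have exact Clopper-Pearson intervals, and intervals cover counting error only, at 95%. Library totals given by the study were 305731 and 300665 reads in roots and 319997 and 299134 in leaves. The tissue comparison added 0.5 to each count. Members matched by other species (11 root and 8 leaf isotigs) and singletons were left out.

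Members and lists were chosen with earlier results of these data known. The genes named by rule are, per tissue, each called member, the 5 not called with most reads, called genes of each list (at most 3) and members that differed between tissues. Other genes named, RBOHC and MDAR1 among them, lie outside this rule and were not chosen before their values were seen. Alternatives were calls by Fisher's exact test, by MARS after Benjamini-Hochberg adjustment and by the exact test of edgeR 4.0.16 (coefficient of variation assumed as 0.2 or 0.4), study totals, TMM, DESeq2 1.42.0 size factors, 10 reads, 0 set to 0.5, a 2-fold minimum, other ways to sum isotigs, and isogroups tested apart. Calls under these alternatives kept the limit of 0.001, applied to the adjusted p for Benjamini-Hochberg. Isotigs carry no wheat gene identifier, so no position or sequence is given.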

Additional observations from a re-analysis of the deposited data

Results flagged for a closer look

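By a test of the difference itself (root minus leaf, log2 scale), the drought effect of 3 of the 12 members compared differed between tissues. The share over all 1991 genes compared was 16.5%, and 12 members are too few to be set apart from it. The difference was -4.08 for AT1G60420, -6.75 for AT5G06730 and -1.41 for APX3. That of AT1G60420 is between sums of unlike isogroups. Root isogroup00135 had 75 and 22 reads, whereas root isogroup01022 (0 and 21) and leaf isogroup01011 (0 and 29) were both higher under drought. That of AT5G06730 rests on the 0.5 added to a root drought count of 0, and was at most -4.19 with that count set to 3 reads. With the library totals of the study, TMM and size factors, those of AT1G60420 and AT5G06730 stayed under an adjusted p of 0.05, at most 4.07e-05 and 0.0426, whereas that of APX3 rose to between 0.0747 and 0.250. AT5G06730 shares its root isogroup with AT2G38380.

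A signal appeared in a listed isotig that the rule leaves out because its best match is not an Arabidopsis protein. Leaf isotig07030, matched to Peroxidase 15 of another species, had 3 control reads and 23 drought reads. Scaled by the sums over all isotigs, this was 11.1-fold higher (3.34 to 57.6; Fisher's exact p = 7.00e-07), and scaled by the gene totals, an alternative chosen after seeing the data, 10.2-fold (3.08 to 53.1; Fisher's exact p = 2.34e-06). In roots the isotigs with this match had at most 21 control reads, with 9 drought reads, and were not called (Fisher's exact p = 0.0169 by the isotig sums and 0.0689 by the gene totals).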

How the results depend on the processing

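The 12 down-regulated root members, all class III peroxidases, remained 12 with the library totals of the study, TMM, size factors, a minimum of 10 reads, 0 set to 0.5 and a 2-fold minimum, and were 11 with Fisher's exact test. With 1 isotig kept per gene 12 members were down-regulated, of which 10 were class III: AT2G41480 and AT4G37530 were lost, and AT1G60420 and AT1G65820 gained. With the sum of all isotigs there were 13, of which 12 were class III, with AT1G60420 gained. The 12 were 7 with Benjamini-Hochberg adjustment, at an adjusted p under 0.001. With the edgeR exact test the 12 were 7 at an assumed coefficient of variation of 0.2 and 3 at 0.4. AT1G71695 and AT5G19890 were among those lost at 0.2, and AT4G33420 was lost at 0.4 as well. The 3 left at 0.4 were AT4G11290, AT2G38380 and AT5G06730, of which the last 2 share an isogroup. Among all root genes the edgeR test at 0.4 called 46 up-regulated and 63 down-regulated. Tested by isogroup, 2 root members were up-regulated, 1 of them a class III peroxidase, against 0 by gene. In leaves, the 3 up-regulated members were 1 with edgeR at 0.4, where APX3 and AT1G60420 were lost, and 6 with the sum of all isotigs. The 2 down-regulated leaf members were 1 with Fisher's exact test and 0 with Benjamini-Hochberg adjustment, edgeR at 0.2, edgeR at 0.4 and the sum of all isotigs. The 1 down-regulated class III peroxidase of leaves was lost, leaving 0, under those same 5 settings. In the settings that test genes, no named gene reversed its direction with a call. Tested by isogroup, AT1G71695, down-regulated in roots as a gene, had isogroup02466 up-regulated, and AT1G60420 had root isogroups called in both directions. The cause of these changes was not tested. No paired analysis was possible because each tissue and condition has 1 library, and no replicate could be left out. Under 10 reads, as in 19 root and 14 leaf members, few differences could be detected.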
